A study of Mus musculus with 26 samples.

Results

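Immediate early genes are transcribed within minutes of a stimulus, from promoters that need no newly made protein. The 36 described here were taken by gene symbol from a list of stimulus-induced early response genes, a rule that uses no measured value. All 36 were among the 26264 symbols of the deposited count table, and all 36 passed the filter on low counts that left 16566 genes. The lowest count of any of them in any library was 20, for Dusp2. They were followed across 18 RNA libraries of cultured mouse femoral osteoblasts, 3 in each of 6 groups, all of the C57BL/6J strain. YOUNG and OLD were cells of mice aged 3 and 18 months. CKO-YOUNG and CKO-OLD came from Kdm2b fl/fl mice with Ocn-cre and the Ai14 reporter. In them the CxxC domain of Kdm2b, through which this subunit of the Polycomb complex PRC1.1 binds DNA, was deleted conditionally. CON-YOUNG was the control, from Ocn-cre Ai14 mice. CON-OLD-iBP is named as an old control with iBP, which stands unexplained in the labels and is read here as a treatment. The labels give no age in months for these 4 groups. All cells were grown in medium with 10% fetal bovine serum, itself a stimulus for these genes. Whether replicates are separate animals or cultures is not stated, so a p-value covers the spread between these libraries alone, and that spread may be technical. The Cre driver is the osteocalcin promoter, which is active in mature osteoblasts. An untreated old group of the Cre control line was not among them, so in CKO-OLD against OLD and CON-OLD-iBP against OLD the mouse line and the deletion or treatment cannot be told apart.

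Growth factors, serum, cytokines, mechanical load and hormones that raise cAMP switch these genes on through the MAP kinases and the factors SRF and CREB. The first wave encodes transcription factors of the FOS, JUN, EGR, NR4A and KLF families. The second arm encodes brakes, such as the DUSP phosphatases that inactivate MAP kinases and Zfp36, which destroys short-lived mRNAs. In bone, FOS and JUN proteins pair as AP-1, which acts on osteoblast matrix genes, and parathyroid hormone is a well known inducer of Fos and of the NR4A genes in osteoblasts.

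The promoters of the genes that the comparisons below turn on are shown first. RefSeq windows of the GRCm38.p6 build were found for 26 of the 36 members. The 250 bases before each start site were searched on both strands for the cAMP response element core TGACG, the full element TGACGTCA, which contains 1 core on each strand, the AP-1 site TGAGTCA, and the CArG box that SRF binds. Some genes have several windows, and the 26 genes have 35. The core was in 22 of the 35, from 16 of the 26 genes, and in 17.8% of all 32851 windows. The 3 NR4A genes are shown because Nr4a1 and Nr4a2 were the members called in CKO-OLD against CKO-YOUNG. Each of the 3 had 4 cores, and 3 or more were found in 0.688% of all windows. Dusp1, not shown, also had cores at -191, -143 and -140. The 3 NR4A windows were 63.6% to 80% G and C, and the share over all windows was not matched for this. Other members with differences of like size in CKO-OLD against CKO-YOUNG, such as Fos, are not shown. The full element was in 3 of the 35 windows, from 3 genes, and in 1.55% of all windows. The AP-1 site was in 1 of the 35, from Csrnp1, and in 4.46% of all windows. The CArG box was in 6 of the 35 windows, from 3 of the 26 genes, Dusp5, Egr2 and Zfp36, and in 1.47% of all windows. Windows of 1 gene can overlap, and those of Egr2 starting at 67537619, 67537620 and 67537680 hold the same box. Boxes beyond the 250 bases, or of the 10 members without a window, were not searched for. Dusp5 and Zfp36 are shown because they lay apart in opposite directions in CON-OLD-iBP against CKO-OLD. Such a match is a description of the letters and not of binding. Each sequence runs 5′ to 3′ on the gene's strand and ends at the base before the start site. Capitals mark cores in either orientation (TGACG or CGTCA) in the NR4A genes, and CArG boxes in the others. The windows lie at chr15:101266596-101266845, plus strand (Nr4a1), chr2:57124004-57124253, minus strand (Nr4a2), chr4:48045055-48045304, plus strand (Nr4a3), chr19:53528895-53529144, plus strand (Dusp5) and chr7:28379229-28379478, minus strand (Zfp36).
Nr4a1: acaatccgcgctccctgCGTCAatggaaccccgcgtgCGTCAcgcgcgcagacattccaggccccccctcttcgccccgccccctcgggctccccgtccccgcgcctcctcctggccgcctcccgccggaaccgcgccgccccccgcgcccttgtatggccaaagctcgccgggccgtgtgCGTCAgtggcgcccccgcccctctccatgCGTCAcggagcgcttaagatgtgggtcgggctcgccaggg
Nr4a2: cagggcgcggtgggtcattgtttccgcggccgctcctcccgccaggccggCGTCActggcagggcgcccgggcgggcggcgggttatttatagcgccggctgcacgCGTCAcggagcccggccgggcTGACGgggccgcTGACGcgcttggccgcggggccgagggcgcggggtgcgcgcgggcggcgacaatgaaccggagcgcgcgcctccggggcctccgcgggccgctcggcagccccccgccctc
Nr4a3: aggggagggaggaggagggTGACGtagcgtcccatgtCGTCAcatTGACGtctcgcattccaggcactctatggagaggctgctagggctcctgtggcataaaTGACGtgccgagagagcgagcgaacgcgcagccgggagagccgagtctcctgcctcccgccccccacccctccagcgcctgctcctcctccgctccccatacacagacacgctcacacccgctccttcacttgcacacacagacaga
Dusp5: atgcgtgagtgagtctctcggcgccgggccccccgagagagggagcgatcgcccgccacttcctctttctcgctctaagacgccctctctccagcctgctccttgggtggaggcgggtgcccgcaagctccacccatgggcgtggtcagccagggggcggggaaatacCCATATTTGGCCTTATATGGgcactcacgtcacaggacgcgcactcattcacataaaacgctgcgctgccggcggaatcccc
Zfp36: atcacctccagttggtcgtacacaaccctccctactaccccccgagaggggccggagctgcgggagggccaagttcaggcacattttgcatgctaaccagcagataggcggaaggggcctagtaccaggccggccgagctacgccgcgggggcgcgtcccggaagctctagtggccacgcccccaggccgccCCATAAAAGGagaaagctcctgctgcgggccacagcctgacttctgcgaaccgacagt
Nr4a1 held its cores as 2 pairs, 1 far and 1 near the start site, with first bases at -233, -213, -69 and -40. In Nr4a2 their first bases lay from -200 to -111 and in Nr4a3 from -231 to -147, with none near the start site. The 2 CArG boxes of Dusp5 lay end to end from -82 to -63, and the box of Zfp36 began at -58.

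Libraries held 46272076 to 77698781 counts. They fell into sets that cross the groups, parted by the share of counts of the nuclear RNA Malat1. It was under 0.05% in replicates 1 and 2 of YOUNG, CKO-YOUNG and CON-YOUNG and replicates 1 and 3 of OLD, and above 0.05% in the other 10 libraries. The low YOUNG and OLD libraries had 391 to 481 CPM (counts per 1e+06, on edgeR's TMM library sizes) of the female transcript Xist and none of the Y-linked Ddx3y. The other 14 had 21.3 to 91.8 CPM of Ddx3y, and CKO-YOUNG 3 among them also had 372 CPM of Xist. Osteoblast markers (10 genes) took 1.65% to 6.19% of counts in all libraries, with Runx2, Sp7 and Col1a1 present in each. Bglap, the osteocalcin gene whose promoter drives the Cre, was nearly absent from young cells of the Cre lines. Its level was 0.15, 0 and 9.89 CPM in CON-YOUNG and 0.152, 0 and 0.306 CPM in CKO-YOUNG. The other 4 groups held 25.2 to 83.6 CPM. Macrophage markers (14 genes, none at 0 in any library) took 0.914% to 1.44% of counts in the low YOUNG and OLD libraries, 0.0124% to 0.0175% in the low CON-YOUNG and CKO-YOUNG libraries and 0.0437% to 0.572% in the rest. Cd3e, Cd3g and Hba-a1 were at 0 in all 18 libraries, and 1 of 5 neutrophil, 0 of 4 B and T cell and 1 of 4 erythroid markers passed the filter on low counts. In bulk RNA fewer cells of a type and less RNA per cell cannot be told apart. OLD 1 and OLD 3 were closer than any other pair of one group, with a median squared difference 6.24 times that of counting noise against 16.1 or more in the others, and were kept as 2 libraries. CKO-YOUNG held 51.5, 58.2 and 27.6 CPM of the targeted Kdm2b against 48.8, 52.9 and 19.9 CPM in CON-YOUNG, and CKO-OLD held 23.4, 57.2 and 28.4 CPM against 34.3, 19.3 and 31.1 CPM in OLD. Such whole-gene values cannot check the loss of 1 domain.

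The immediate early genes spanned a wide range between libraries. Together they took 0.204% of counts in CON-YOUNG 1 and 0.805% in YOUNG 1. The highest library stood a median of 7.98-fold above the lowest over the 36 genes, against 4.19-fold over all genes tested. The range was above 10-fold in 16 of the 36, against 35.4% of all genes. The synaptic gene Arc had the widest range, from 0.478 CPM in CON-YOUNG 2 to 46.1 CPM in CON-OLD-iBP 1. It was followed by Fos (15.3 to 1037 CPM), Fosb (6.52 to 427 CPM) and the stress factor Atf3 (6.26 to 318 CPM). Fosl2, also a FOS family member, had the narrowest range, 166 to 284 CPM, and Jund, the JUN gene that is expressed without a stimulus, ran from 160.1 to 394 CPM.

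**Figure D1:**
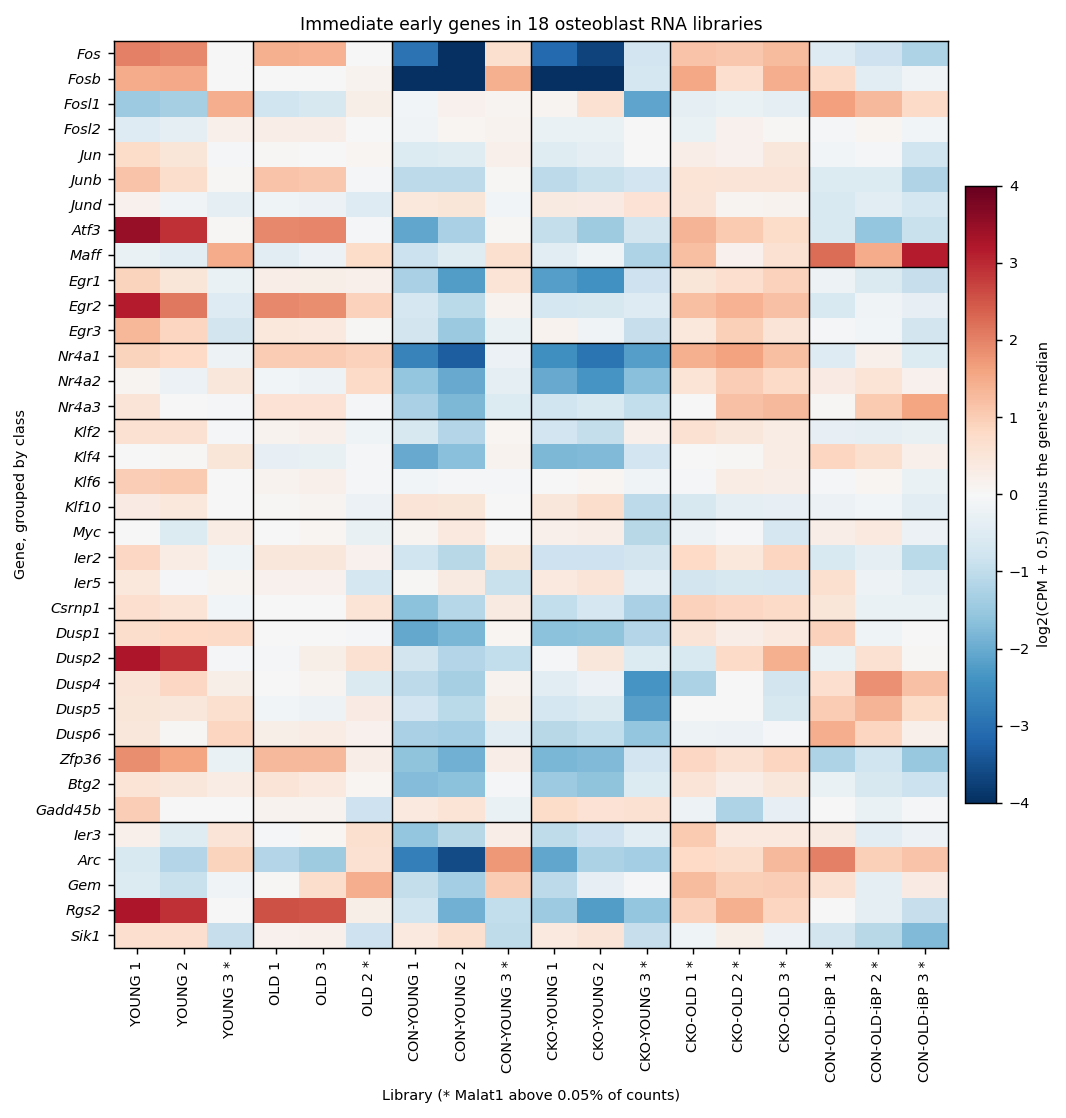
Each cell is log2(CPM + 0.5) of 1 gene (rows, grouped by class) in 1 library (columns, grouped by sample group), minus the gene's median over the 18 libraries, so red is above and blue below the median. The low-Malat1 CON-YOUNG and CKO-YOUNG libraries are blue for Fos, Fosb, Egr1, Nr4a1 and Zfp36, and CON-OLD-iBP is red for Maff, Dusp4 and Dusp5.

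Levels followed library set as well as group. Fos, the founding member of AP-1, was at 1037, 967 and 257 CPM in YOUNG 1, 2 and 3 and 686, 258 and 677 CPM in OLD 1, 2 and 3. It was at 32.5, 15.3 and 401 CPM in CON-YOUNG, 29.1, 19.3 and 149.8 CPM in CKO-YOUNG, 569.8, 539.7 and 621 CPM in CKO-OLD and 179, 145 and 108 CPM in CON-OLD-iBP. The third replicate of CON-YOUNG and of CKO-YOUNG, both with high Malat1, stood far above the first and the second. In 11 of the 36 genes all 4 low-Malat1 CON-YOUNG and CKO-YOUNG libraries lay under the other 14, against 9.33% of all genes tested. These were Fos, Fosb, Egr1, Egr2, Nr4a1, Klf2, Klf4, Dusp1, Zfp36, Btg2 and Ier3. In 6, namely Fos, Junb, Atf3, Egr2, Zfp36 and Rgs2, the 4 low-Malat1 YOUNG and OLD libraries lay above the other 14, against 6.66% of all genes. Rgs2, which shortens G protein signalling and is known to respond to parathyroid hormone in osteoblasts, showed the second pattern. It was at 181 and 145 CPM in YOUNG 1 and 2 and 113 and 109.7 CPM in OLD 1 and 3, and at most 51.4 CPM elsewhere.

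Age, sex transcripts, macrophage markers and mouse line differ between these sets, and their parts in the levels cannot be told apart. By group median, 13 members were highest in YOUNG, 9 in CKO-OLD, 8 in CON-OLD-iBP and 2 in each of the other groups. CON-YOUNG was lowest for 20 members and CKO-YOUNG for 8. Most libraries of YOUNG, OLD, CON-YOUNG and CKO-YOUNG had low Malat1, so this ranking does not separate group from library set. It was not made over all genes.

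**Figure D2:**
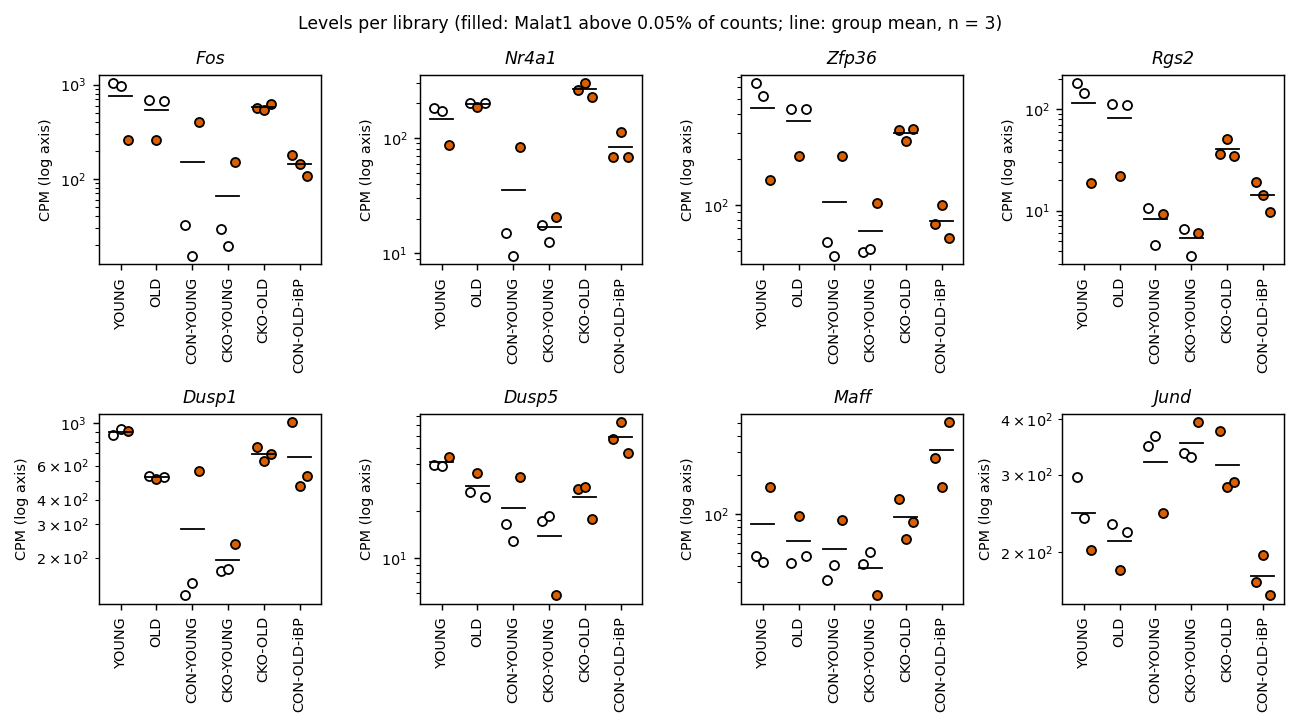
CPM of 8 immediate early genes on log axes, 1 point per library and 3 per group, with the group mean as a line and filled points for libraries with Malat1 above 0.05% of counts. Fos is at 15.3 to 32.5 CPM in the open points of CON-YOUNG and CKO-YOUNG, and the group means of Maff and Dusp5 are highest in CON-OLD-iBP.

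CON-OLD-iBP and CKO-OLD, the comparison in which all 6 libraries had high Malat1, lay apart in both directions. Treatment and deletion both part the groups, so this comparison shows how they stand to each other and not which moved. Jund was lower in CON-OLD-iBP, at 172, 197 and 160.1 CPM against 377, 282 and 289 CPM in CKO-OLD. Its log2 fold change was -0.84 (SE 0.20), and it was the single member past an adjusted p of 0.05 in edgeR's quasi-likelihood test with 1 coefficient per group over the 18 libraries (adjusted p = 0.0498). In that test 1.29% of all genes were called. The call was just inside the threshold. It was lost with RLE scaling, with no filter on low counts, in a fit of these 2 groups alone, with the replicate number as a block and when any of the 6 libraries other than CON-OLD-iBP 2 was left out. Jund was also called lower by DESeq2, by limma-voom, with a term for library set and with coefficients within sets.

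The levels of the 2 groups did not overlap in 25 of the 36 members, 19 lower and 6 higher in CON-OLD-iBP, against 30.5% of all genes tested (16% lower, 14.5% higher). The median log2 fold change was -0.71 over the members and -0.01 over all genes. The spread in the 18-library fit includes that between library sets. With coefficients for each group within each set, the same 6 libraries gave the same fold changes and 23 members were called, 17 lower and 6 higher, against 18.7% of all genes. The spread in that fit comes in part from the low-Malat1 pairs of other groups. Their median squared difference was 6.24 (OLD), 16.1 (CKO-YOUNG), 20.9 (CON-YOUNG) and 44 (YOUNG) times that of counting noise. It was 31.7 to 85 times within CKO-OLD and 66.4 to 113 times within CON-OLD-iBP, so the within-set p-values may be too small. A fit of these 2 groups alone called 14, 11 lower and 3 higher, against 4.44% of all genes, and DESeq2 over 18 libraries called 10 of the 34 that it gave an adjusted p, against 9%. The counts were 10 with the replicate number as a block, against 4.24%, and 17 with a term for library set, against 12.3%. They were 17 by limma-voom with quality weights for the libraries, against 17.3%, and 0 with no filter on low counts, against 0.6%. Adjusted p-values in the next 4 paragraphs are edgeR's over the 18 libraries with group coefficients, followed by those with coefficients within sets.

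Among the AP-1 subunits, Fos was at 179, 145 and 108 CPM in CON-OLD-iBP and 569.8, 539.7 and 621 CPM in CKO-OLD, a log2 fold change of -2.00 (adjusted p = 0.284; within sets 0.000984). Junb was at 199, 197 and 125 against 427, 416 and 415 CPM (-1.27, adjusted p = 0.0843; within sets 0.00117). The 2 groups were apart for both genes, by more than their own spread. Atf3, which represses many AP-1 targets, was at 17.9, 9.23 and 14.8 against 72.7, 57.8 and 46.7 CPM (-2.08, adjusted p = 0.14; within sets 0.00115). Fosb overlapped, at 247, 109 and 133 against 427, 230.1 and 399 CPM, since CON-OLD-iBP 1 stood above CKO-OLD 2. Fosl1, the FOS member that is made later after a stimulus, went the other way, at 129, 102 and 70.3 against 31.4, 34.1 and 31.2 CPM (1.64, adjusted p = 0.22; within sets 0.000709). Maff, a small MAF protein without an activation domain, was at 272, 161 and 508 against 131, 64 and 87 CPM (1.74, adjusted p = 0.133; within sets 0.00817). Its CON-OLD-iBP values were spread widely, and all were above every CKO-OLD value. Jun, the main partner of FOS proteins, was at 192, 196 and 119 against 253, 236 and 283 CPM (-0.61, adjusted p = 0.203; within sets 0.0336). Fosl2 overlapped, at 229, 246 and 219 against 195, 262 and 244 CPM, with a 95% interval of its log2 fold change of -0.40 to 0.38.

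All 3 EGR genes, zinc finger factors that follow ERK signalling, were lower in CON-OLD-iBP without overlap. Egr1 was at 299.7, 230.4 and 183 against 484, 553 and 649.5 CPM (-1.24, adjusted p = 0.242; within sets 0.00677). Egr2 was at 6.18, 8.73 and 7.68 against 22.9, 26.4 and 22.8 CPM (-1.67, adjusted p = 0.154; within sets 0.00137). Of the NR4A orphan nuclear receptors, Nr4a1 was at 68.1, 113 and 67.9 against 263, 298 and 228 CPM (-1.67, adjusted p = 0.143; within sets 0.00107). Nr4a3 overlapped, at 4.44, 9.52 and 13.9 against 4.4, 10.4 and 11.5 CPM. Nr4a2 was at 32.5, 37.5 and 28.6 against 37.9, 51.1 and 44 CPM, apart by a narrow margin. Of the 4 KLF factors, Klf2 alone had groups apart, at 80.9, 77.3 and 81.7 against 154, 139 and 126 CPM (adjusted p = 0.185; within sets 0.00311). Myc, the growth regulator, overlapped, at 104, 113 and 72.7 against 74.4, 81.3 and 53.7 CPM, and so did Klf4, at 288, 244 and 181 against 159, 162 and 195 CPM. Ier2, a nuclear protein of the early response, was at 85.4, 98.3 and 60.9 against 224, 173 and 235 CPM (-1.37, adjusted p = 0.0659; within sets 0.00134).

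The MAP kinase phosphatases held 3 of the 6 members that were higher. Dusp5, a nuclear phosphatase specific for ERK, was at 57.3, 73.1 and 46.6 against 27.6, 28.4 and 17.7 CPM (1.26, adjusted p = 0.108; within sets 0.00226). Dusp4, which acts on ERK and JNK in the nucleus, was at 52, 115 and 73.9 against 13.1, 32.5 and 19.4 CPM (1.89, adjusted p = 0.0843; within sets 0.00352). Dusp6, the cytoplasmic ERK phosphatase, was at 235, 155 and 99 against 73.4, 71.7 and 82.9 CPM (1.10, adjusted p = 0.0827; within sets 0.0103). The lowest CON-OLD-iBP value lay above the highest CKO-OLD value in each of these 3. Dusp1, which acts mainly on p38 and JNK, overlapped, at 1005, 473 and 528 against 754, 633 and 691 CPM.

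Zfp36, the mRNA decay factor tristetraprolin, was lower in CON-OLD-iBP. It was at 74.9, 100.5 and 60.6 against 314, 265 and 316 CPM (-1.92, adjusted p = 0.101; within sets 0.000183, the smallest of the 36). Btg2, an antiproliferative gene, was at 113, 86 and 75.2 against 193, 164 and 186 CPM (adjusted p = 0.178; within sets 0.00149). Sik1, a kinase that restrains CREB signalling, was at 21.2, 16.2 and 10.2 against 31.8, 42.2 and 30.2 CPM and Rgs2 at 19.1, 14.2 and 9.63 against 35.9, 51.4 and 34.5 CPM. Both were apart, with adjusted p of 0.235 and 0.232 by edgeR over 18 libraries and 0.00667 and 0.011 within sets. Macrophage markers took 0.0467% to 0.0909% of counts in CON-OLD-iBP and 0.129% to 0.572% in CKO-OLD, all 14 with a negative log2 fold change and 11 with groups apart. The 10 osteoblast markers were also all negative, 5 at an unadjusted p under 0.05 and 2 with groups apart, with a median of -0.74, and took 1.65% to 3.24% of counts in CON-OLD-iBP and 3.08% to 4.34% in CKO-OLD. Of 7 osteoclast markers 5 were negative, and 0 had groups apart. The part of these lists in the members' differences was not tested.

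**Figure D3:**
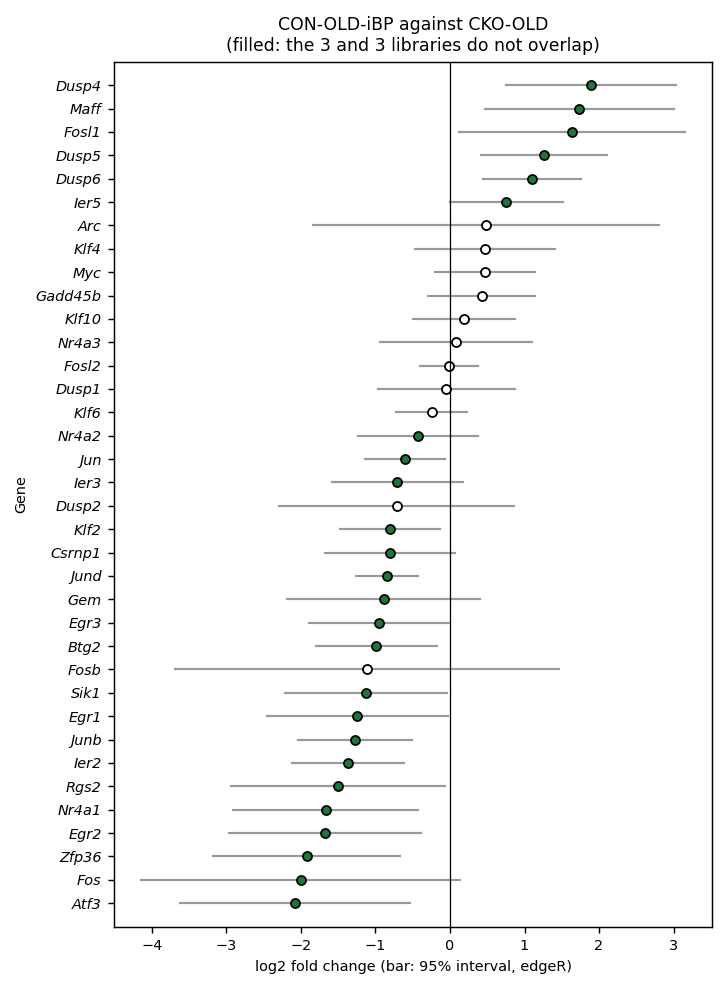
Log2 fold change of CON-OLD-iBP against CKO-OLD for each of the 36 genes (points), with the 95% interval of edgeR's fit over 18 libraries as a bar; points are filled where the 3 and 3 libraries do not overlap. The 6 filled points on the right are Dusp4, Maff, Fosl1, Dusp5, Dusp6 and Ier5, and the 19 filled points on the left include Atf3, Fos and Zfp36.

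Old knockout cells stood above young knockout cells for most members. CKO-OLD against CKO-YOUNG asks how age moves the genes within the knockout, but 2 of the 3 CKO-YOUNG libraries had low Malat1 and no CKO-OLD library had. Nr4a1 was at 263, 298 and 228 CPM in CKO-OLD against 17.6, 12.6 and 20.7 CPM in CKO-YOUNG. Nr4a2 was at 37.9, 51.1 and 44 against 5.92, 4.56 and 7.69 CPM. In both the 3 CKO-OLD libraries were far above the 3 CKO-YOUNG libraries, the one with high Malat1 included. CON-YOUNG, without the deletion, held 14.9, 9.56 and 82.7 CPM of Nr4a1 and 8.35, 5.92 and 19.6 CPM of Nr4a2. Without an untreated old group of that line, whether the difference is particular to the knockout cannot be told. Nr4a1 rose by 3.95 on the log2 scale (SE 0.64, edgeR adjusted p = 0.0253) and Nr4a2 by 2.87 (SE 0.41, adjusted p = 0.0253). They were the 2 members called, against 0.7% of all genes. Nr4a3 was at 4.4, 10.4 and 11.5 against 2.27, 2.68 and 1.93 CPM (1.94, adjusted p = 0.0626).

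The groups were apart in 26 of 36 members, 24 higher and 2 lower in CKO-OLD, against 31.5% of all genes (16.3% higher, 15.2% lower). The median log2 fold change was 1.42 over the members and -0.0047 over all genes. Of the 36, 25 had an unadjusted p under 0.05, against 24.5% of all genes. Fos was at 569.8, 539.7 and 621 against 29.1, 19.3 and 149.8 CPM (3.13, adjusted p = 0.104) and Egr1 at 484, 553 and 649.5 against 75.5, 64 and 197 CPM (2.33, adjusted p = 0.0626). For both, CKO-YOUNG 3 lay above the other CKO-YOUNG libraries and under all of CKO-OLD. The same held for Zfp36, at 314, 265 and 316 against 49.1, 50.8 and 103 CPM, and for Dusp1, at 754, 633 and 691 against 171, 175 and 235 CPM.

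Gadd45b, which binds and activates a stress kinase of the p38 and JNK pathways, and Ier5 were the 2 that lay lower. Gadd45b was at 28.9, 13.9 and 26.2 against 54.9, 50.2 and 50.6 CPM (-1.17, adjusted p = 0.0753) and Ier5 at 63.7, 68.4 and 66.8 against 139, 152 and 78.7 CPM (-0.89, adjusted p = 0.147). Jund overlapped, at 377, 282 and 289 against 336, 329 and 394 CPM (95% interval of the log2 fold change -0.57 to 0.25).

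Within the high-Malat1 libraries, where CKO-YOUNG 3 is the only CKO-YOUNG library, 18 members were called, all higher in CKO-OLD, against 5.38% of all genes. Other groups supply the spread of that single library. Nr4a1 was again among them (3.67, edgeR adjusted p = 0.00255), as were Fos (1.94, adjusted p = 0.0227), Rgs2 (2.74, adjusted p = 0.0183) and Dusp5 (2.08, adjusted p = 0.00573). Without CKO-YOUNG 3 there were 19 calls, 16 higher and 3 lower (Klf10, Ier5 and Gadd45b), against 15.7% of all genes. Without any other library of the 2 groups there were 0, so Nr4a1 and Nr4a2 lost their calls. Without CKO-OLD 1, 2 or 3 or CKO-YOUNG 1 the share of all genes called was 0% as well, so this loss is not particular to the members. Over all 6 fits without 1 library, Nr4a1 ranged from 3.79 to 4.13 on the log2 scale and Nr4a2 from 2.71 to 3.08. With a term for library set only Nr4a2 was called, against 0.0362% of all genes, and Nr4a1 was at 2.69. The 2 groups alone gave 16 calls, against 4.87% of all genes, and 12 with the replicate number as a block, against 1.52%. DESeq2 called 17, against 12.7%, and limma-voom 29, against 51.5%; with no filter on low counts 2 were called, against 0.422%. Macrophage markers took 0.129% to 0.572% of counts in CKO-OLD and 0.0124% to 0.0916% in CKO-YOUNG, and 10 of the 14 had groups apart, all higher in CKO-OLD. The 7 osteoclast markers were all positive, 4 at an unadjusted p under 0.05 and 2 with groups apart, with a median of 3.60. The part of either list in these differences was not tested.

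**Figure D4:**
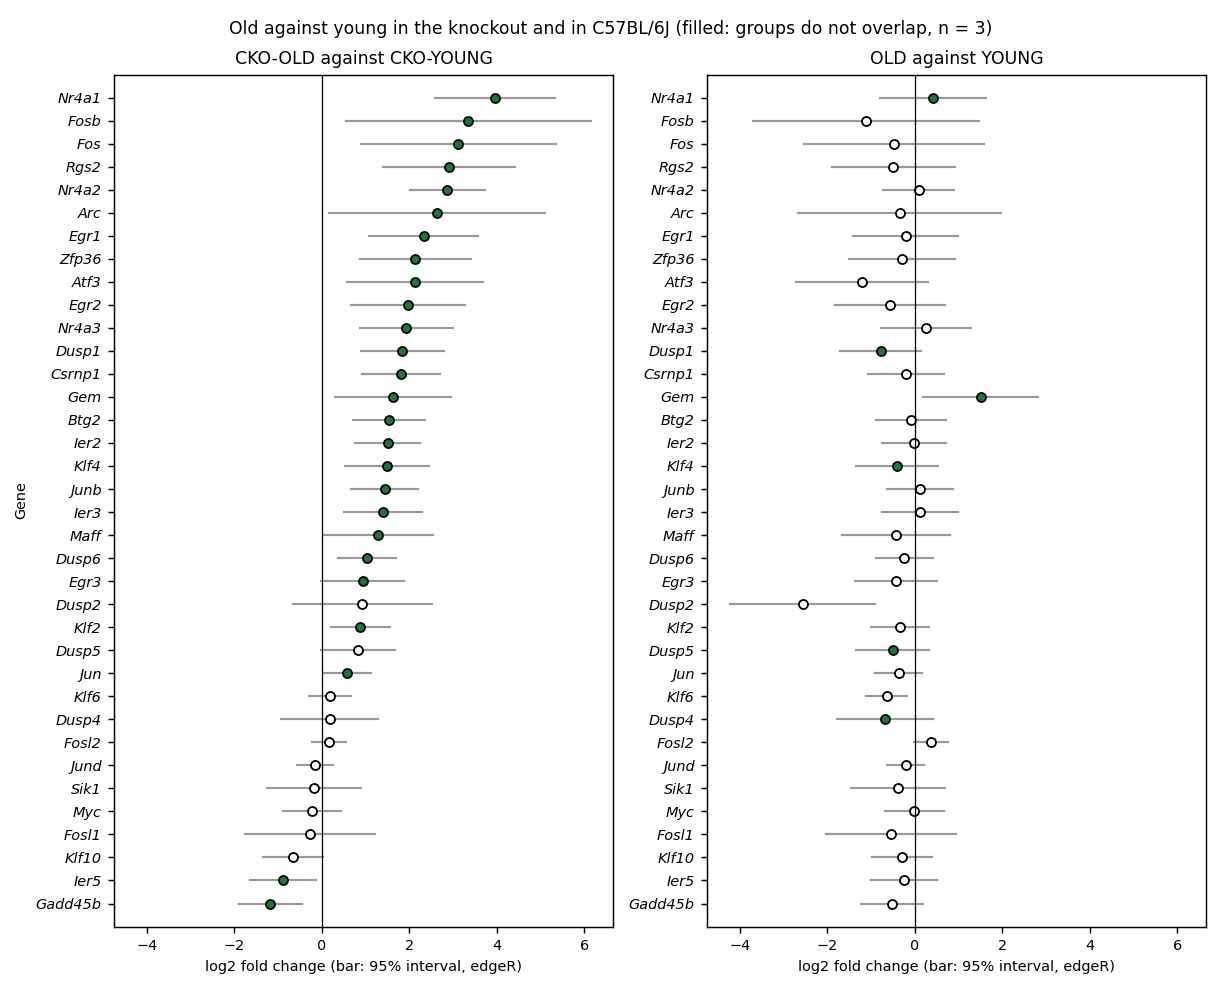
Log2 fold change of old against young cells for each of the 36 genes in the knockout (left) and in YOUNG and OLD (right), in the order of the left panel, with 95% intervals of edgeR's fit as bars; points are filled where the 3 and 3 libraries do not overlap. In the knockout 24 filled points lie to the right of 0, and in OLD against YOUNG 2 do.

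In the C57BL/6J cells without Cre, OLD against YOUNG gave 0 of 36 members past the threshold by edgeR and 3 at an unadjusted p under 0.05, against 0% and 3.34% of all genes. DESeq2 called 0 members, against 0.249% of all genes, and limma-voom 7, against 6.68%. The log2 fold change was negative in 29 of 36, with a median of -0.35 against -0.03 over all genes. Dusp1 had groups apart, at 530.5, 511 and 525 CPM in OLD 1, 2 and 3 against 866, 928 and 906 CPM in YOUNG 1, 2 and 3 (-0.79, unadjusted p = 0.0908, edgeR adjusted p = 1). Its 6 values did not follow Malat1. Klf4, Dusp4 and Dusp5 were also lower without overlap, and Nr4a1 and the small GTPase gene Gem higher, 6 in all against 11.4% of all genes (5.63% lower, 5.73% higher).

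Dusp2, a phosphatase best known from immune cells, was at 1.41, 2.46 and 1.78 CPM in OLD and 17.8, 14.3 and 1.41 CPM in YOUNG (-2.57, edgeR adjusted p = 1). The difference lay between the low-Malat1 libraries, in which macrophage markers took the largest shares, while YOUNG 3 and OLD 2 were at 1.41 and 2.46 CPM. Macrophage markers took 1.44% and 0.914% of counts in YOUNG 1 and 2, and 1.01% in each of OLD 1 and 3; their part was not tested. In the low-Malat1 libraries OLD 1 and 3 lay under YOUNG 1 and 2 in 20 of the 36, against 28.3% of all genes, and above in 6, against 25.3%. Fosb was at 142 and 145 CPM in OLD 1 and 3 against 411 and 415 CPM in YOUNG 1 and 2, Atf3 at 106 and 109 against 318 and 212 CPM, and Klf6 at 211 and 219.5 against 381 and 399 CPM. None was called there by edgeR, against 0.38% of all genes (adjusted p = 0.13, 0.188 and 0.0519). In the high-Malat1 libraries, OLD 2 against YOUNG 3, Fosb was at 159 against 146 CPM and Atf3 at 27.1 against 29 CPM, so these differences were not seen there, and edgeR called 0 members, against 0.0543% of all genes. Osteoclast markers took 0.216% and 0.221% of counts in OLD 1 and 3, and 0.0175% to 0.0251% in YOUNG and in OLD 2; their part was not tested.

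The deletion in young cells, CKO-YOUNG against CON-YOUNG, gave 0 of 36 members past the threshold by edgeR, against 0.127% of all genes, and 1 at an unadjusted p under 0.05, against 5.48%. That was Nr4a2, at 5.92, 4.56 and 7.69 CPM in CKO-YOUNG against 8.35, 5.92 and 19.6 CPM in CON-YOUNG (-0.90, adjusted p = 0.814), where CON-YOUNG 3 stood far above the rest. DESeq2 called 0 members, against 1.43% of all genes, and limma-voom 1, Egr3 higher, against 2.98%. The log2 fold change was negative in 28 of 36 with a median of -0.22, and without CON-YOUNG 3 the median was 0.25. Groups were apart in 2 members, Dusp2 and Gadd45b, both higher in CKO-YOUNG, against 8.51% of all genes (5.32% higher, 3.19% lower). Gadd45b was at 54.9, 50.2 and 50.6 against 43.5, 48.8 and 27.7 CPM. In the low-Malat1 libraries 17 of 36 were higher in CKO-YOUNG 1 and 2 than in CON-YOUNG 1 and 2, against 21.4% of all genes, and 3 were lower, against 22.5%. Dusp1 was at 171 and 175 against 128 and 147 CPM, Csrnp1 at 24.1 and 29.8 against 15 and 21.4 CPM and Egr3 at 19.4 and 15.9 against 10.5 and 6.07 CPM. For Dusp1 and Csrnp1 these steps were small beside those between library sets. For Egr3 they were not. Its median was 13.2 CPM in the low-Malat1 CON-YOUNG and CKO-YOUNG libraries, 16.7 CPM in the high-Malat1 libraries and 28.4 CPM in the low-Malat1 YOUNG and OLD libraries. Within the low-Malat1 libraries edgeR called 0 members, against 0.459% of all genes.

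The third replicates went the other way. CKO-YOUNG 3 lay under CON-YOUNG 3 in 30 of 36 members, against 48.8% of all genes, and at least 2-fold under it in 18, against 13.2%. With 1 library a side and the spread taken from other groups, 9 members were called lower, against 6.72% of all genes. They were Fosb, Fosl1, Nr4a1, Nr4a2, Klf10, Csrnp1, Dusp4, Dusp5 and Arc. Arc was at 4.06 against 38 CPM, Dusp5 at 5.82 against 33.1 CPM and Nr4a1 at 20.7 against 82.7 CPM. CKO-YOUNG 3 was the library with both Xist and Ddx3y, and this is a difference between 2 libraries.

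The deletion in old cells, CKO-OLD against OLD, also gave 0 of 36 by edgeR, against 0.00604% of all genes, and 1 at an unadjusted p under 0.05 (Jund, unadjusted p = 0.00989), against 8.16%. DESeq2 called 0 members, against 1.1%, and limma-voom 17, against 41.1% of all genes. Groups were apart in 12, with 10 higher in CKO-OLD against 8.9% of all genes and 2 lower against 8.47%. The 10 were Fosb, Jun, Jund, Egr1, Nr4a1, Klf2, Klf4, Csrnp1, Dusp1 and Arc, and the 2 were Klf10 and Dusp6. Jund was at 377, 282 and 289 CPM in CKO-OLD against 232, 182 and 222 CPM in OLD, and Fosb at 427, 230.1 and 399 against 142, 159 and 145 CPM. Egr1 was at 484, 553 and 649.5 against 413, 399 and 411 CPM and Nr4a1 at 263, 298 and 228 against 199, 186 and 201 CPM. Each CKO-OLD library was above each OLD library in these 4 genes, and OLD 1, 2 and 3 lay close together despite their different library sets in Fosb, Egr1 and Nr4a1. Fos did not have groups apart, since OLD 1 and 3 lay above and OLD 2 under the 3 CKO-OLD libraries. Against OLD 2 alone, the high-Malat1 OLD library, all 3 CKO-OLD libraries were higher in 21 of the 36, against 21.1% of all genes, and lower in 5, against 23.2%. There edgeR called 0, against 0.0543%. Macrophage markers took 0.129% to 0.572% of counts in CKO-OLD and 0.133% to 1.01% in OLD. The 7 osteoclast markers were all negative, 6 at an unadjusted p under 0.05 and 1 with groups apart, with a median of -3.57. The part of either list was not tested.

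The CKO contrast over both ages was the mean of CKO-YOUNG minus CON-YOUNG and CKO-OLD minus OLD. By edgeR it called 0 of 36, against 0.531% of all genes. An unadjusted p under 0.05 was found in 1 member, against 8.38% of all genes. That was Jund, with a log2 fold change of 0.36 (SE 0.14, edgeR adjusted p = 0.43). The CKO effect was also compared between ages, as CKO-OLD minus OLD against CKO-YOUNG minus CON-YOUNG. By edgeR 0 members differed, and 1, Nr4a2, had an unadjusted p under 0.05 (1.47, adjusted p = 0.963), against 0% and 4.81% of all genes. In both contrasts the old part sets the knockout line against OLD, so mouse line and deletion cannot be told apart there. DESeq2 called 0 members in either, against 2.51% and 0.292% of all genes, and limma-voom 6 and 4, against 23.7% and 16.4%. Within the high-Malat1 libraries the contrast over both ages called 4, Jund higher and Fosl1, Klf10 and Dusp5 lower, against 6.58% of all genes.

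The old control given iBP was set against untreated OLD as well. EdgeR called 0 of 36, against 0.0241% of all genes, with 14 at an unadjusted p under 0.05, against 23.4%. DESeq2 called 8, against 13.6%, and limma-voom 20, against 40.2%. Groups were apart in 19, 13 lower and 6 higher in CON-OLD-iBP, against 15.8% and 14.3% of all genes. Zfp36 was at 74.9, 100.5 and 60.6 CPM in CON-OLD-iBP against 429.7, 209.9 and 429 CPM in OLD (-2.18, adjusted p = 0.0636), Junb at 199, 197 and 125 against 637, 283 and 619 CPM (-1.56, adjusted p = 0.055) and Atf3 at 17.9, 9.23 and 14.8 against 106, 27.1 and 109 CPM (-2.53, adjusted p = 0.0722). In each, OLD 2 lay between OLD 1 and 3 and the CON-OLD-iBP libraries.

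Maff was at 272, 161 and 508 CPM in CON-OLD-iBP against 42.2, 95.8 and 47.9 CPM in OLD (2.34, adjusted p = 0.0599) and Dusp4 at 52, 115 and 73.9 against 32.2, 21.4 and 34.6 CPM (1.45, adjusted p = 0.12). Against OLD 2 alone, Zfp36 was the single member called (-1.42, edgeR adjusted p = 0.024), against 0.857% of all genes. Without OLD 2, 6 members were called, Maff higher and Junb, Atf3, Egr2, Zfp36 and Rgs2 lower, against 7.87% of all genes. This comparison shares OLD with CKO-OLD against OLD, and CON-OLD-iBP with CON-OLD-iBP against CKO-OLD. YOUNG 3, a high-Malat1 library of untreated young cells, held 161 CPM of Maff, 114 CPM of Fosl1 and 153 CPM of Dusp6, each at or above the lowest CON-OLD-iBP library, so these levels were not found in treated cells alone. All 14 macrophage markers had a negative log2 fold change in CON-OLD-iBP against OLD, 9 of them with groups apart. The 7 osteoclast markers were all negative too, each at an unadjusted p under 0.05, 6 with groups apart and a median of -7.92. The part of either list was not tested.

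Other genes of the pathway were read from lists that the members are not part of. Of 12 upstream factors (SRF, its cofactors and CREB factors) and 18 kinases from RAS to ERK, p38 and JNK, none was called in any of the 8 contrasts by edgeR. It called 0% to 1.29% of all genes in these contrasts, so lists of this size would seldom hold a call. In CON-OLD-iBP against CKO-OLD, 3 of the 12 factors and 10 of the 18 kinases had an unadjusted p under 0.05, against 19.6% of all genes. Of 40 further early and delayed early genes, Spred1 and Nfil3 were called there, against 1.29% of all genes. Spred1, an inhibitor of RAS to ERK signalling, was at 268, 201 and 214 CPM in CON-OLD-iBP against 101, 114 and 107 CPM in CKO-OLD and rose by 1.08 (adjusted p = 0.0209). Nfil3, a bZIP repressor, was at 13.3, 14.4 and 13.7 against 48.7, 56.8 and 46.3 CPM (-1.87, adjusted p = 0.0264). Of 6 further DUSP genes, Dusp8 was called lower, against the same 1.29% of all genes. It was at 4.81, 7.63 and 5.37 against 16.1, 22.2 and 19.3 CPM (-1.69, adjusted p = 0.0209).

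Of 12 heat shock genes, the inducible pair Hspa1a and Hspa1b was called in CON-OLD-iBP against CKO-OLD, both lower, against 1.29% of all genes. Hspa1b was at 32.2, 53.8 and 23.4 against 127, 252 and 193 CPM (-2.39, adjusted p = 0.046). These are near-identical copies whose reads may be shared, so they count as 1 observation. In CKO-OLD against CKO-YOUNG, 1 of the 40 early and delayed early genes was called, against 0.7% of all genes. It was the cytokine gene Il6, at 8.16, 8.13 and 7.5 CPM in CKO-OLD against 0.575, 0.442 and 0.306 CPM in CKO-YOUNG (4.16, adjusted p = 0.0253). Groups were apart in 22 of the 40 upward and 3 downward, against 16.3% and 15.2% of all genes. The SRF and MRTF cytoskeletal targets lay the other way in that comparison. Of 15, 13 were lower in CKO-OLD with groups apart, against 15.2% of all genes, the median log2 fold change was -1.28, and Tgfb1i1, a focal adhesion gene, was called (-1.28, adjusted p = 0.0253). It was at 124, 131 and 129 against 324, 344 and 263 CPM. The 10 osteoblast markers were split in that comparison, with 5 positive and 5 negative log2 fold changes, 3 higher and 3 lower with groups apart, and a median of 0.06. Of them Spp1 and Bglap, both matrix protein genes of mature osteoblasts, were called higher in CKO-OLD than in CKO-YOUNG by edgeR. Spp1 was at 11959, 11526 and 10345 against 2351, 1848 and 1487 CPM (adjusted p = 0.0253), and Bglap at 83.6, 43.2 and 49.5 CPM in CKO-OLD (adjusted p = 0.0389).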

How the data were processed

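RNA was sequenced in 18 of the 26 samples; the 8 H2AK119ub1 CUT&Tag samples were not used. For each gene symbol the authors deposited whole-number read counts without normalization. FastQC, Trim Galore, HISAT2 and mm39 are named in the submitters' processing notes; their versions, the read counter, the annotation and the strand setting are not known here, so overlapping or antisense genes cannot be told apart by their counts. The filter was filterByExpr of edgeR with a count minimum of 10 and a total of 15. Libraries were scaled by TMM, and the test was the robust quasi-likelihood F test of edgeR with 1 coefficient per group, two-sided, with Benjamini-Hochberg adjustment over the 16566 genes tested and a threshold of 0.05. SEs come from the F statistic. Called means past that threshold. Groups are apart, or do not overlap, where the lowest library of one lies above the highest of the other. Alternatives were DESeq2, limma-voom, RLE scaling, no filter, the compared groups alone, a replicate block, a term for library set, coefficients within sets, and each library left out. Limma-voom stands throughout for limma-voom with quality weights for the libraries. The edgeR test was also run on simulated counts without library sets, so that run does not check it against the sets found here. Versions were DESeq2 1.42.0, limma 3.58.1, edgeR 4.0.16 under R 4.3.3, and matplotlib 3.10.9 under Python 3.11.15. The members, lists, library sets and rule for named genes (all members, and up to 3 called genes per list and comparison) were chosen with earlier results of these data known. The interaction between the age effects of the 2 lines was added after the data were seen. Replicate numbers come from the titles. In CKO-YOUNG and CON-YOUNG, libraries of the same number deviated together over genes (correlations of 0.276, 0.333 and 0.324), so a paired fit was also made. CKO-YOUNG 1 and CON-YOUNG 2 correlated at 0.375, above each same-number pair, and replicate 3 has high Malat1 in both groups.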

Additional observations from a re-analysis of the deposited data

Results flagged for a closer look

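Klf4 and Dusp1 stood out because all OLD libraries lay under all YOUNG libraries while all CKO-OLD libraries lay above all CKO-YOUNG libraries. Dusp1 was at 866, 928 and 906 CPM in YOUNG, 530.5, 511 and 525 CPM in OLD, 171, 175 and 235 CPM in CKO-YOUNG and 754, 633 and 691 CPM in CKO-OLD. Klf4 was at 155, 162 and 220.3, 126, 152 and 129, 44.6, 46.3 and 92.4 and 159, 162 and 195 CPM in the same groups. CON-YOUNG, without the deletion, held 128, 147 and 565 CPM of Dusp1 and 38.4, 48.5 and 172 CPM of Klf4. An untreated old group of that line was not among the samples, so mouse line and deletion cannot be told apart here. The age effect in the knockout minus that in YOUNG and OLD was 2.63 for Dusp1 (edgeR adjusted p = 0.31) and 1.89 for Klf4 (adjusted p = 0.326) on the log2 scale, and neither passed the threshold. By this test 0 genes of the table passed, and 24 of the 36 members had an unadjusted p under 0.05, against 12.0% of all genes. CKO-YOUNG has 2 low-Malat1 libraries and CKO-OLD none. Against CKO-YOUNG 3 alone, the high-Malat1 library, the age difference in the knockout was 1.56 for Dusp1 (edgeR adjusted p = 0.0329) and 0.89 for Klf4 (adjusted p = 0.0585), with the spread of that library taken from other groups.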

How the results depend on the processing

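Shares of all genes called that are not repeated here are given with each comparison above. The counts of members called were as follows where they moved from those of edgeR over 18 libraries (0 in every comparison except 1 in CON-OLD-iBP against CKO-OLD and 2 in CKO-OLD against CKO-YOUNG). In CON-OLD-iBP against CKO-OLD they were 0 with RLE scaling, against 1.27% of all genes, and 0 with no filter. There they were also 10 by DESeq2, 17 by limma-voom, 14 in the compared groups alone, 17 with a library-set term and 23 within the libraries above 0.05% Malat1. In CKO-OLD against CKO-YOUNG they were 17 by DESeq2, 29 by limma-voom, 16 in the compared groups alone, 1 with the library-set term and 18 above 0.05% Malat1. By limma-voom they were 1 in CKO-YOUNG against CON-YOUNG (2.98% of all genes) and 7 in OLD against YOUNG (6.68%). They were 17 in CKO-OLD against OLD (41.1%) and 20 in CON-OLD-iBP against OLD (40.2%). For CKO over both ages they were 6 (23.7%) and for the difference of the CKO effect 4 (16.4%). These 6 and 4 are 16.7% and 11.1% of the members. DESeq2 called 8 in CON-OLD-iBP against OLD. Above 0.05% Malat1 they were 9 in CKO-YOUNG against CON-YOUNG, 1 in CON-OLD-iBP against OLD and 4 for CKO over both ages.

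Leaving out 1 library gave 0 to 6 members in CON-OLD-iBP against OLD, 0 to 1 in CON-OLD-iBP against CKO-OLD, 0 to 19 in CKO-OLD against CKO-YOUNG and 0 in the others. The 1 was Jund, without CON-OLD-iBP 2, against 3% of all genes. With the replicate number as a block, 10 were called in CON-OLD-iBP against CKO-OLD and 12 in CKO-OLD against CKO-YOUNG, where the block fit holds only the compared groups. Jund was not among the 10. The block fit called 0 in each other comparison, the pairs of CKO-YOUNG and CON-YOUNG included.

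For the 63 fold changes of members that were called or had an unadjusted p under 0.05 in the 6 comparisons of 2 groups, 886 values were computed under alternatives: 662 kept direction and side of the threshold, 202 passed it newly, 20 lost it and 2 changed sign. Those were Dusp2 in OLD against YOUNG, 0.80 above 0.05% Malat1, and Arc in CKO-OLD against CKO-YOUNG, -0.35 with the library-set term. The causes were not tested, and the fewer samples of the compared-group fits are part of their construction. Signs of other members moved more: in CKO-YOUNG against CON-YOUNG 8 of 36 were positive, and 26 without CON-YOUNG 3, 27 by limma-voom and 29 below 0.05% Malat1. Depth limits Dusp2 most, with 20 counts in CON-YOUNG 2.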
